A study of Mus musculus with 4 samples.

Results

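To see what loss of Tyk2 does in β-cells before most of the autoimmune disease has developed, β-cells from 6-week-old (6w) female NOD mice without Tyk2 (Tyk2-/-) were compared with β-cells from 6w wild type (Tyk2+/+) NOD mice on Clariom D mouse arrays. There was 1 array for each genotype, each with RNA of cells pooled from several mice, so this comparison used 2 of the 4 arrays of the study; the other two held 11-week-old (11w) Tyk2+/+ and Tyk2-/- β-cells from the same strain and sex. The cells of every array had been dispersed from islets and sorted by a zinc dye (FluoZin-3-AM) and a dye for mitochondrial potential (TMRE), with cells bearing CD45, the pan-leukocyte protein, left out. The knockout allele was whole-body, was made in another strain, and was crossed first to C57BL/6J and then to NOD mice. A microsatellite marker on chromosome 9, which carries Tyk2, had kept the donor form. All 65956 features of the array were compared, and they gave values for 30176 genes. With 1 array for each condition no difference has a replicate check, so sizes are given without p-values.

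TYK2 is a Janus kinase bound to the receptors of type I interferon (IFN), interleukin-12 and interleukin-23. After ligand binding it phosphorylates STAT proteins, which enter the nucleus and switch on IFN-stimulated genes. β-cells make insulin as proinsulin, which is folded in the endoplasmic reticulum (ER), passed to the Golgi and cut to insulin in secretory granules. Mature β-cells are known for a set of glucose-sensing, granule and calcium-handling genes that young or stressed β-cells express less. Tyk2 itself gave signals of 15.5 on the 6w Tyk2+/+ array and 16.8 on the 6w Tyk2-/- array, near the array medians of 15.7 and 16.2. Which part of the gene its feature covers is not known from the files, so this is no check of the genotype.

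Each gene was described by its log2 difference, Tyk2-/- minus Tyk2+/+ at 6w. A Z score was formed by dividing that difference by the SD of the differences of the features nearest in signal. A gene was called higher when Z exceeded 2.0 and the ratio exceeded 1.5, and lower when Z was below -2.0 and the ratio was below 0.66. The 6w arrays were close to each other, with 91.6% of genes within 1.5-fold and a Pearson correlation of 0.976 across features, which are not independent replicates. By the calling rule 381 of 30176 genes (1.26%) were higher and 330 (1.09%) were lower in 6w Tyk2-/- β-cells, and the median difference over all genes was 0.03. Which direction had more calls depended on the scaling, with 309 higher and 392 lower after centring each array on its median and 331 and 373 after quantile normalization. The count of higher calls depended on dim genes and was 165 when 16 was added to each signal before the log2. The calls differed in kind between the directions. Of the genes called higher, 197 of 381 lay below the 75th percentile of signal on both arrays and 19 lay above the 90th percentile on both. For the genes called lower these counts were 79 and 72 of 330. The percentiles were taken over all features of an array, so most features lie below the 75th percentile. These counts therefore compare the directions with each other and not with all genes. Predicted and RIKEN genes, microRNA genes, small nucleolar or spliceosomal RNA genes and sensory receptor genes made up 253 of the 381 higher calls and 136 of the 330 lower calls. These groups also held all but 18040 of the 30176 genes. Over the other 18040 genes, 128 (0.71%) were called higher and 194 (1.08%) lower. The plot of difference against signal shows the higher calls crowded at low signal, where most features lie, and the lower calls spread up to high signal.

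**Figure D1:**
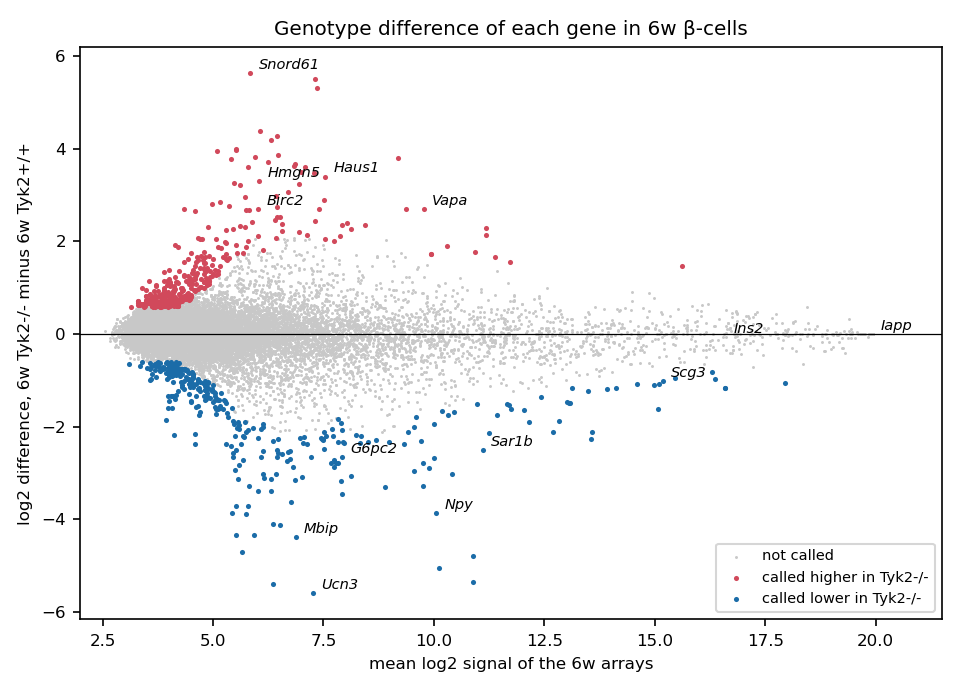
Each point is a gene, with the mean log2 signal of the 6w arrays on the x axis and the log2 difference, 6w Tyk2-/- minus 6w Tyk2+/+, on the y axis; red points are the 381 genes called higher, blue points the 330 called lower and grey points the rest. Ucn3 (-5.60) and Npy (-3.87) are far below 0, while Ins2 (-0.06) and Iapp (0) lie on it.

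The named gene with the greatest fall in signal was Ucn3, which encodes urocortin 3, a peptide that mature mouse β-cells release with insulin and that acts on δ-cells. Its signal was 1067 on the 6w Tyk2+/+ array, 22.0 on the 6w Tyk2-/- array, 22.4 on the 11w Tyk2+/+ array and 34.9 on the 11w Tyk2-/- array. The 6w Tyk2+/+ array therefore stood alone, and the 6w Tyk2-/- array was at the level of the 11w Tyk2+/+ array. Both of these lay under the 75th percentile of their arrays, and the log2 difference at 6w, -5.60, therefore rests on a dim signal. Npy, the gene of neuropeptide Y, which restrains insulin release, gave 4062 on the 6w Tyk2+/+ array, 278 on the 6w Tyk2-/- array, 307 on the 11w Tyk2+/+ array and 385 on the 11w Tyk2-/- array. Again the 6w Tyk2+/+ array alone was high, and the log2 difference between the 6w genotypes was -3.87. Because RNA of whole cell pools was measured, fewer cells that express a gene and less RNA of it in each cell cannot be told apart. The 250 bases before the RefSeq start of these genes (build GRCm38.p6, printed 5′ to 3′ on the strand of the gene) are shown because they had the greatest falls among β-cell peptides. Capitals mark matches, on either strand, to TAAT, the core that homeodomain factors such as PDX1 read. They also mark matches to CANNTG, the E-box read by helix-loop-helix factors. The 2 motifs did not overlap.
Ucn3 (chr13:3945350-3945599, minus strand): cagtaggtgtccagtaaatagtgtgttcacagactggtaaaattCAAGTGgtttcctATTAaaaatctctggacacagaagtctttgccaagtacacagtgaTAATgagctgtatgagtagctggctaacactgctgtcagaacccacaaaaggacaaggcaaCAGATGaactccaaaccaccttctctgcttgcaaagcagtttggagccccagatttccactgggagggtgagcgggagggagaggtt
Npy (chr6:49822460-49822709, plus strand): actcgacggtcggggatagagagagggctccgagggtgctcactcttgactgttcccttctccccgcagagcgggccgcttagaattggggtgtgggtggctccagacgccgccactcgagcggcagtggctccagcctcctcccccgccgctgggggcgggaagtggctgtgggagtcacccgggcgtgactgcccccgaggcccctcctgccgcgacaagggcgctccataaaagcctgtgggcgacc
The Ucn3 window held 2 matches to TAAT and 2 to CANNTG, and the Npy window held none to either. A match to TAAT is found in 54.9% of the 32851 mouse promoter windows of this length and a match to CANNTG in 66.2%, so these letters are common. TGCTGAC, the half-site of MAF factors, is in 3.81% of windows and in neither of these.

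Among genes for glucose sensing and β-cell function, 4 of the 35 measured were called lower and none higher, against 1.09% and 1.26% of all genes. The list median was -0.11, and 26 members were below 0, against 43.2% of all genes. This list and those below were drawn up with earlier results of these arrays known, so their counts describe these arrays and are not independent evidence. Besides Ucn3 the 4 genes were G6pc2, Ero1b and Entpd3. G6pc2, the islet glucose-6-phosphatase subunit that sets the glucose threshold of the β-cell and is an autoantigen in NOD mice, gave 605 on the 6w Tyk2+/+ array, 95.4 on the 6w Tyk2-/- array, 87.5 on the 11w Tyk2+/+ array and 189 on the 11w Tyk2-/- array. Its signal was thus 6.35-fold lower in 6w Tyk2-/- β-cells and close to that of the 11w Tyk2+/+ array. Ero1b, the pancreatic ER oxidase that forms disulphide bonds in proinsulin, gave 545 on the 6w Tyk2+/+ array, 82.7 on the 6w Tyk2-/- array, 85.3 on the 11w Tyk2+/+ array and 95.2 on the 11w Tyk2-/- array. The 3 lower arrays lay within a narrow band, and the 6w Tyk2+/+ array was 6.59-fold above the 6w Tyk2-/- array. Entpd3, an enzyme on the β-cell surface that cleaves extracellular nucleotides, gave 43.4, 18.6, 27.5 and 28.2 in the order Tyk2+/+ then Tyk2-/- at 6w, followed by Tyk2+/+ then Tyk2-/- at 11w, and its log2 difference was -1.22 at 6w.

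Genes of granule cargo and of autoantigens of type 1 diabetes were mixed, with 3 of 21 called lower and none higher, against 1.09% and 1.26% of all genes, and a list median of -0.02. One of the 3 was G6pc2, described above. Pcsk1, the convertase that makes the first cuts in proinsulin, gave 101, 27.3, 33.6 and 52.3 in the same array order, with a log2 difference of -1.89. Scg3, a secretogranin that holds granule proteins at the granule membrane, gave 52813, 26041, 23396 and 19266, and its difference was -1.02. In both genes the 6w Tyk2+/+ array was the highest of the 4 and the 6w Tyk2-/- array lay in or next to the range of the 11w arrays. The major cargo genes named next were level between the 6w genotypes. Ins2 gave 101685 in Tyk2+/+ and 97214 in Tyk2-/- β-cells at 6w, a difference of -0.06. Ins1, the other mouse insulin gene, had no feature with its symbol alone, so it was not compared here. The study reports lower expression of both Ins1 and G6pc2 in Tyk2-/- β-cells at the younger age. Slc30a8, the granule zinc transporter, differed by -0.09, Chga (chromogranin A) by -0.01, Cpe (carboxypeptidase E) by -0.02, Scg2 (secretogranin II) by 0.05 and Ptprn (the autoantigen IA-2) by -0.04. Iapp stood at the highest signal of its array on both 6w arrays, as did Gcg, Sst and Ppy of the α-, δ- and PP-cells and 86 features in all, and a feature at that level cannot show a difference. Ins2 lay below that signal, but its log2 difference at 11w, 0.07122, was identical to that of Iapp. Whether the Ins2 feature had also reached a limit was not tested, so its level signals may not be able to show a difference.

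Hormone, neuropeptide and growth factor genes had 4 of 37 members called lower and none called higher, against 1.09% and 1.26% of all genes, with a median of 0.00, and 2 of the 4 were Ucn3 and Npy. Nucb2, the precursor of the peptide nesfatin-1, gave 7446, 2380, 1833 and 2321, again with the 6w Tyk2+/+ array alone at the top and a log2 difference of -1.65. Nmb, the gene of neuromedin B, gave 26.5, 10.4, 12.6 and 12.3, where the signals of 3 arrays were below the array medians, and its difference was -1.35. Among 36 receptor and ion channel genes of excitable cells 1 (2.78%) was called, and it was lower. This was Gpr158, an orphan-family receptor of neurons and endocrine cells, which gave 200.4, 15.2, 18.5 and 15.7 and differed by -3.72. A further list of calcium sensors and secretion genes, put together after its values had been seen, had 2 of 21 members called lower, against 1.09% of all genes. Scgn, the calcium sensor secretagogin of endocrine cells, gave 60098, 19552, 14172 and 26270, 3.07-fold lower in 6w Tyk2-/- than in 6w Tyk2+/+ β-cells. Vsnl1, the neuronal calcium sensor VILIP-1, gave 1849, 373, 312 and 584, 4.95-fold lower. For both genes the 6w Tyk2-/- signal lay between the 11w signals, and the 6w Tyk2+/+ signal was above all others.

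**Figure D2:**
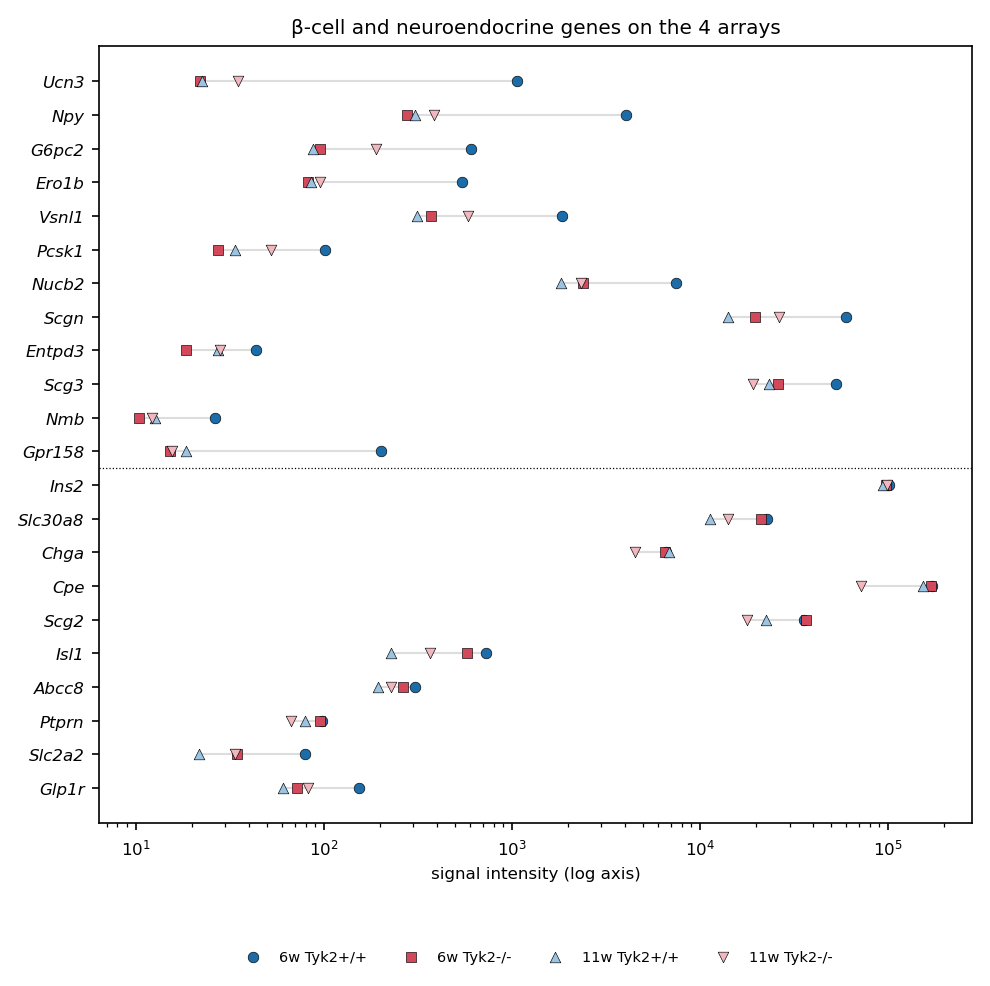
Signal intensity (log axis) of β-cell and neuroendocrine genes on the 4 arrays, 1 point for each array; the genes above the dotted line were called lower in 6w Tyk2-/- β-cells and those below it were not called. In the 12 genes above the line the 6w Tyk2+/+ array (dark blue circle) is the highest of the 4; for Ins2, Chga, Cpe and Ptprn the 6w symbols lie on top of each other.

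No gene for glucose uptake or an incretin receptor was called. Slc2a2, the glucose transporter GLUT2, gave 79.1, 34.5, 21.7 and 33.6 (log2 difference -1.20, Z -1.35), and Glp1r, the receptor for GLP-1, gave 153, 72.4, 60.8 and 82.3 (difference -1.08, Z -1.03). Slc2a1, the glucose transporter GLUT1, and Gipr, the receptor for GIP, were level, with differences of -0.07 and -0.02. Ffar1, the fatty acid receptor GPR40, differed by -0.81 at 6w and by 1.40, the other way, at 11w. The KATP channel genes were level, with a difference of -0.21 for Abcc8 and -0.03 for Kcnj11. None of 30 β-cell transcription factor genes was called, and their median was 0.00, with 15 above and 15 below 0. The widest differences were in Rfx6 (-0.98), Nkx6-1 (-0.85) and Prox1 (0.79), factors of endocrine development. Mafa (14.1 and 12.9 on the 6w arrays) and Pdx1 (15.7 and 14.8), which define mature β-cells, gave signals near or below the array medians, so their features carry little information on a difference. Of 25 dedifferentiation genes and genes that mature β-cells keep silent, none was called, and the median was 0.04.

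Counted over the calls, the 6w Tyk2+/+ array lay farther from the mean of the 11w arrays than the 6w Tyk2-/- array did for 258 of the 330 genes called lower, and the 6w Tyk2-/- array lay farther for 231 of the 381 genes called higher. The calls were made on the same 6w difference, which favours such an order, so these counts are a description only. With 1 array for each condition, a trait of the pool or of the array and an effect of genotype at 6w cannot be told apart.

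Several genes of the ER and the early secretory pathway were called lower. In a list of 53 genes of ER translocation, COPII transport and the early secretory pathway, put together after values had been seen, 5 were called lower and none higher, against 1.09% and 1.26% of all genes, and the median was -0.22, with 40 members below 0. Over all genes 43.2% were below 0. A list made after values had been seen is no evidence about the pathway. Sar1b, the GTPase that starts COPII vesicles at ER exit sites, gave 5250 on the 6w Tyk2+/+ array, 920.4 on the 6w Tyk2-/- array, 1210 on the 11w Tyk2+/+ array and 757 on the 11w Tyk2-/- array. This was a 5.70-fold lower signal at 6w, and both 11w arrays were near the 6w Tyk2-/- level. Ufm1, a ubiquitin-like modifier attached to ribosomes at the ER, gave 5460, 1921, 2364 and 2079, with the 6w Tyk2+/+ array alone high, and its call was lost under quantile normalization. Ssr2, a subunit of the translocon-associated TRAP complex, gave 14169, 5063, 14656 and 4335, low on both Tyk2-/- arrays. Bcap31, an ER membrane protein that carries cargo out of the ER, gave 1493, 371, 148 and 1436; it was called lower at 6w and higher at 11w. Derl3, a channel component for removal of misfolded proteins, had signals of 14.8, 14.5 and 16.7 on the 6w Tyk2-/-, 11w Tyk2+/+ and 11w Tyk2-/- arrays, below that of the 6w Tyk2+/+ array, and had the smallest difference of the 5, -0.75, which was not called with 1 SD over all features, with a ratio limit alone or on log2 of signal plus 16. The 7SL RNA genes Rn7s1 and Rn7s2, whose RNA forms the core of the signal recognition particle, had identical signals, 148232 on the 6w Tyk2+/+ array and 65806 on the 6w Tyk2-/- array, and cannot be separated from each other.

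Of 29 genes of the unfolded protein response none was called, although 20 were below 0 (43.2% of all genes were) and the median was -0.22. The widest differences were in Creld2 (895 and 267 on the 6w arrays, -1.74), an ER-stress-induced secreted protein, and Atf6 (92.6 and 33.8, -1.46), a sensor of ER stress. The ER chaperone gene Hspa5 (BiP) differed by -0.80, Xbp1 by -0.88, Ddit3 (CHOP) by -0.24 and Atf4 by 0.13. Of 85 oxidative phosphorylation subunits 59 were below 0, against 43.2% of all genes, and their median was -0.14. In each direction 1 (1.18%) was called, against 1.26% of all genes higher and 1.09% lower. Cox7a1, the heart and muscle form of a complex IV subunit, gave 113, 25.9, 28.2 and 29.5, and Cox7b2, the testis form of another, gave 11.4, 18.9, 9.81 and 14.5, below or near the array medians, with the call lost with 1 SD over all features, with a ratio limit alone and on log2 of signal plus 16. Mitochondrial ribosomal proteins had a median of -0.06 over 75 genes with 1 call (1.33%) each way, Mrpl50 (216, 36.4, 194 and 65.2) lower and Mrps18c (1062, 3601, 381 and 186) higher. Cytosolic ribosomal proteins (39 genes, median 0.00), proteasome subunits and their chaperones (38 genes, median 0.07), and genes of glucose, pyruvate and fatty acid metabolism (41 genes, median 0.03) had no call. Of the cytosolic ribosomal genes 20 were above 0 and 11 below, and the rest were exactly 0. Their median at 11w, 0.07122, was the same as the 11w difference of Iapp. How many of their features had reached a limit of signal was not counted. Among 34 antioxidant and detoxification genes the ER peroxidase Gpx8 was the only call (2.94% lower), at -1.11. Cell cycle and DNA replication genes (49, median 0.00) had 3 lower calls (6.12%) and 1 higher call (2.04%), against 1.09% and 1.26% of all genes. The lower calls were the proliferation marker Mki67 (35.8 and 17.6 on the 6w arrays), the replication factor Gins3 (39.7 and 19.1) and the p53 target Ccng1. The higher call was Haus1.

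The other named genes with the greatest falls came from several compartments. Mbip, whose protein binds and restrains the kinase MAP3K12, gave 534 on the 6w Tyk2+/+ array, 25.6 on the 6w Tyk2-/- array, 78.0 on the 11w Tyk2+/+ array and 24.4 on the 11w Tyk2-/- array, and it was low on both Tyk2-/- arrays. Laptm4b, a lysosomal membrane protein, gave 209, 19.8, 18.8 and 14.8, Ly96, the MD-2 partner of the endotoxin receptor TLR4, gave 347, 39.0, 60.0 and 64.6, and Stip1, a co-chaperone that links HSP70 to HSP90, gave 583, 79.3, 88.9 and 74.9. In these 3 genes the 6w Tyk2+/+ array was high and the other arrays were near each other. Timm21, a subunit of the import machinery of the mitochondrial inner membrane, fell by 3.10 on the log2 scale, Cabcoco1 fell by 3.03, and Pitpnb, a phosphatidylinositol transfer protein, fell by 2.80. Nicn1, a subunit of a tubulin-modifying complex, gave 175, 18.0, 14.3 and 66.3, so its genotypes were ordered the other way at 11w.
Among genes with an assigned symbol above the 90th percentile on both 6w arrays, 39 were called lower and 8 higher. The number of all such genes was not counted, so these calls have no share to set beside that of all genes. After Npy and Dpt, the lower ones with the widest differences were Rpf1, a factor of large ribosomal subunit assembly (-2.79), Hacd2, an ER enzyme of fatty acid elongation (-2.67), G6pc2, Sar1b, the tetraspanin Tspan13 (-2.38) and Dym, a Golgi protein (-2.34).

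Markers of other cell types were measured beside these falls. Dpt, which encodes the matrix protein dermatopontin of fibroblasts, gave 2577 on the 6w Tyk2+/+ array, 345 on the 6w Tyk2-/- array, 1758 on the 11w Tyk2+/+ array and 4756 on the 11w Tyk2-/- array. The 6w Tyk2-/- array was here the lowest of the 4, and the 11w Tyk2-/- array the highest. Of 17 fibroblast and stellate cell genes 13 were below 0 at 6w, against 43.2% of all genes, and their median was -0.14. Dpt was the only call (5.88% lower, against 1.09% of all genes). The summed signal of these 17 genes was 21948 on the 6w Tyk2+/+ array, 11765 on the 6w Tyk2-/- array, 18172 on the 11w Tyk2+/+ array and 22322 on the 11w Tyk2-/- array. The fibroblast genes Col1a1 (-0.05), Col1a2 (-0.09) and Col3a1 (-0.14) were level. Mfap5 (156 and 57.7 on the 6w arrays, -1.43), Mgp (1019 and 498, -1.03), Acta2 (-0.91) and Dcn (-0.87) were lower on the 6w Tyk2-/- array and Lum (1.37) higher, none of them called. Of 25 acinar genes 1 was called lower (4%, against 1.09% of all genes), the trypsinogen Prss2 (34.0, 15.8, 21.6 and 24.4). The summed signal of the acinar genes was 590.4 on the 6w Tyk2+/+ array and 538.6 on the 6w Tyk2-/- array. Whether a share of stromal or acinar cells played a part in the falls of β-cell genes was not tested. Leukocyte lists had no call, and most of their genes were near or below the array medians on both 6w arrays; 2 of the 19 pan-leukocyte genes, Was and Arhgdib, exceeded the 75th percentile on a 6w array. For 19 pan-leukocyte genes the median signal was 13.8 in Tyk2+/+ and 13.7 in Tyk2-/- β-cells, and the median differences were 0.06 for them, 0.08 for 15 T and NK cell genes, 0.04 for 10 B cell genes and 0.02 for 17 macrophage and dendritic cell genes, with no call. No gene of the lists for α-cells, δ- and PP-cells, duct, endothelial, neuronal and Schwann cells or adipocytes was called either. Gcg, Sst and Ppy stood at the top of the scale and could not be called. No endothelial gene exceeded the 75th percentile on a 6w array. The absence of calls therefore does not show that the share of these cells was equal.

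Few genes of the pathway that TYK2 serves were called at 6w, but only 1.26% of all genes were called higher and 1.09% lower. At those shares lists this short would hold few calls, so the counts do not set the pathway apart. Of 32 genes of Janus kinases, STATs and TYK2-using receptors none was called, and the median was -0.04. Jak1, the kinase that pairs with TYK2 at IFN receptors, gave 78.0, 33.5, 43.2 and 36.6, a log2 difference of -1.22 with a Z score of -1.42. Jak2 differed by -0.38, Stat2 by 0.16, Stat3 by 0.09 and the type I IFN receptor genes Ifnar1 and Ifnar2 by -0.25 and -0.27. In the list of 42 genes induced by type I IFN, 1 higher call was made (2.38%), and the median of 0.03 equalled that of all genes. The called gene, Ifit3b, an antiviral protein of the IFIT family, gave 9.89, 15.4, 10.5 and 16.9, higher on both Tyk2-/- arrays, with all 4 signals below the array medians, and its call was lost with 1 SD over all features, with a ratio limit alone and on log2 of signal plus 16. Its relatives share much of its sequence, and Ifit1 differed by 0.51 and Ifit3 by 0.27 at 6w, without a call. Isg15, a ubiquitin-like IFN product, differed by -0.03, Mx1 by 0.07, Irf7 by 0.20 and Oas1a by -0.06. The widest difference in the list was that of Samd9l, an IFN-induced restriction factor, which gave 80.2, 25.1, 20.6 and 42.3 and was not called (Z -1.93). At these signals, near the level of most features, a modest change in a rare RNA was not detectable.

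Calls between the 6w genotypes were also few among antigen presentation and inflammatory genes, against shares of 1.26% higher and 1.09% lower over all genes. These lists are short as well, so the counts do not set them apart. No call was made among 17 MHC class I and peptide loading genes (median -0.10), 11 MHC class II genes (median 0.01), 11 GBP and IRG GTPase genes (median 0.00) or 23 death receptor and BCL2 family genes (median 0.03). B2m, whose product is the common light chain of class I molecules, gave 8874 in Tyk2+/+ and 8255 in Tyk2-/- β-cells at 6w, and H2-K1, a heavy chain gene, gave 55.8 and 57.0. H2-M3, a non-classical class I gene, had the widest difference of the class I list, -0.79 (36.7 and 21.3), without a call. B2m and H2-K1 were higher on the 11w arrays, at 183270 and 192544 for B2m and 142 and 122 for H2-K1. Fas, the death receptor, gave 14.6, 18.9, 31.2 and 17.2, so it was slightly higher in 6w Tyk2-/- β-cells (difference 0.37) and was called lower at 11w (-0.86). Of 33 chemokine genes (median 0.11) 1 (3.03%) was called, and it was higher. This was Ccl19, a lymphoid chemokine that draws T cells and dendritic cells, at 7.92, 17.5, 52.1 and 108, where the 6w signals were below or close to the array medians and the call was lost on log2 of signal plus 16. Ccl28, an epithelial chemokine, had a wider difference at a higher signal (31.4 and 72.8, 1.21) and was not called. Cxcl10 and Cxcl9, the IFN-induced ligands of CXCR3, differed by 0.41 and -0.32, and Cxcl13, which draws B cells, by 0.57. Of 24 NF-κB and cytokine-induced genes (median 0.03) only Ier3, an early response gene, was called (4.17% higher), at 9.92 and 15.1 on the 6w arrays. Its call was lost with 1 SD over all features, median centring, quantile normalization, a ratio limit alone and log2 of signal plus 16.

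**Figure D3:**
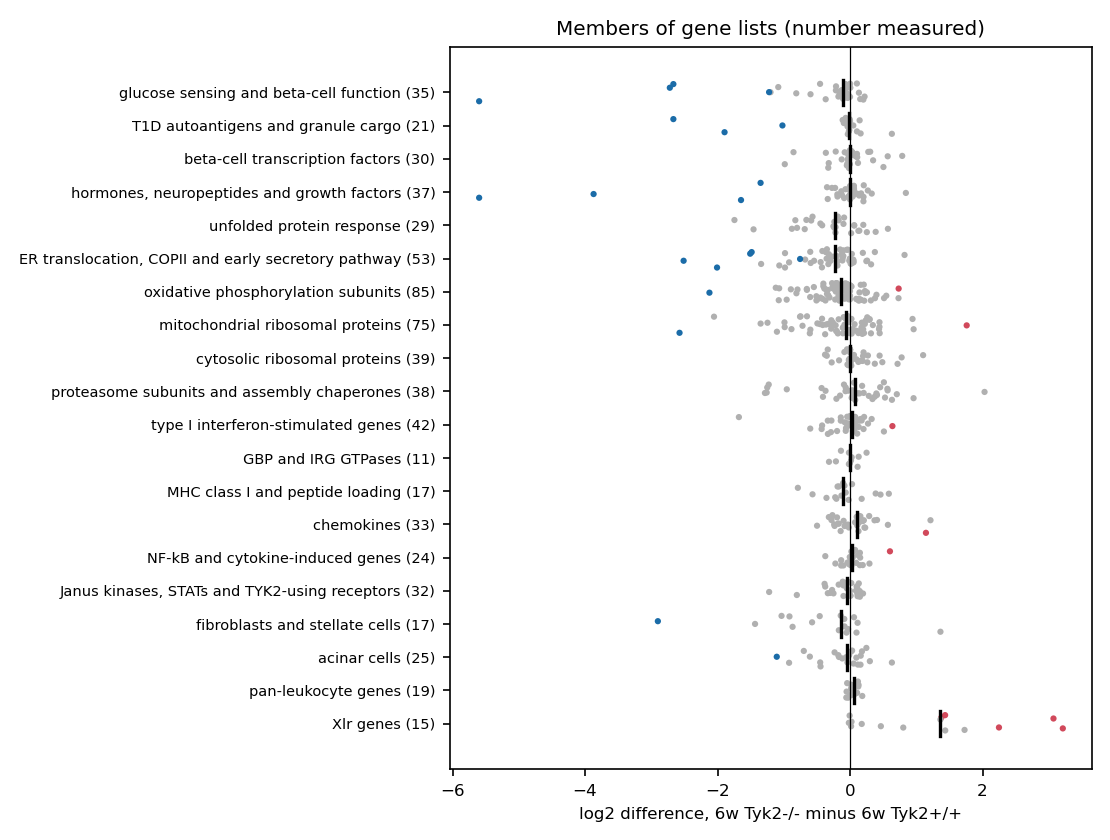
Log2 difference, 6w Tyk2-/- minus 6w Tyk2+/+, of each measured member of 20 gene lists, with the number measured in brackets; blue points were called lower, red points higher, and the black bar is the list median. The glucose sensing, granule cargo, hormone and early secretory pathway lists have blue points far to the left. The β-cell transcription factor and unfolded protein response lists have none. Medians of these β-cell and ER lists lie between -0.22 and 0.00. The immune lists are gathered around 0, and the Xlr genes lie to the right with a median of 1.36.

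Genes called higher in 6w Tyk2-/- β-cells included members of repeated families. Xlr genes, X-linked genes of lymphocyte and germ cell chromatin proteins, had 5 of 15 members called higher and none lower, against 1.26% and 1.09% of all genes, and a median of 1.36; the list was made after these values had been seen. Xlr3c gave 35.6 on the 6w Tyk2+/+ array, 299.6 on the 6w Tyk2-/- array, 29.6 on the 11w Tyk2+/+ array and 28.2 on the 11w Tyk2-/- array. The pseudogene Xlr3d-ps gave 16.1, 149, 12.7 and 14.8, Xlr3e-ps 18.0, 85.3, 16.2 and 15.2, Xlr4a 17.8, 48.2, 20.1 and 18.3 and Xlr3b 20.6, 53.5, 20.8 and 21.0. For all 5 the 6w Tyk2-/- array stood alone and the 11w genotypes were level, while Xlr5a, Xlr5b and Xlr5c differed by 0.18, 0.02 and -0.02 at 6w. Copies of this family are nearly identical, so how many of them changed is uncertain. The vomeronasal receptor pseudogenes Vmn2r-ps17 (11.5, 182, 11.9 and 10.7), Vmn2r-ps16 (11.7, 183, 11.4 and 11.2) and Vmn2r-ps15 (11.4, 156, 12.7 and 10.8) had nearly the same signals as each other and the same single high array. The same limit on telling copies apart applies to them.

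Among the other genes with an assigned symbol, wide rises in signal were found in genes of varied function. Haus1, a subunit of the augmin complex that branches spindle microtubules, gave 56.9 on the 6w Tyk2+/+ array, 600.4 on the 6w Tyk2-/- array, 125 on the 11w Tyk2+/+ array and 123 on the 11w Tyk2-/- array, 10.5-fold higher at 6w and level at 11w. Zfp72, a zinc finger protein gene, gave 38.7, 472, 43.9 and 31.9. Of 364 genes named Zfp 3 (0.82%) were called higher and 7 (1.92%) lower, against 1.26% and 1.09% of all genes. Ppp1r14a, an inhibitor of myosin phosphatase, gave 13.3, 96.3, 14.7 and 17.9, and Pip4k2a, a lipid kinase of phosphoinositide signalling, gave 15.9, 108, 18.5 and 17.7, each high on the 6w Tyk2-/- array alone. The pseudogene Rab11b-ps2 did the same, at 40.1, 382, 21.7 and 24.1. Hmgn5, which encodes a nucleosome-binding protein that loosens chromatin, gave 21.0 on the 6w Tyk2+/+ array, 206 on the 6w Tyk2-/- array, 37.9 on the 11w Tyk2+/+ array and 1061 on the 11w Tyk2-/- array, so that both Tyk2-/- arrays were above both Tyk2+/+ arrays. Birc2, the ubiquitin ligase cIAP1 that restrains cell death and alternative NF-κB signalling, gave 25.5, 167, 35.1 and 212, with the same separation of the genotypes at both ages. Its neighbour in the family, Birc3, differed by 0.03 at 6w. Among the 8 higher calls with an assigned symbol above the 90th percentile on both 6w arrays were Vapa, an ER protein of membrane contact sites (343, 2238, 164 and 342), Atp1b3, a subunit of the sodium pump (258, 1672, 89.9 and 341), Serinc3, a membrane protein of the serine incorporator family (647, 2418, 538 and 777), and Ciao2a, a factor of iron-sulphur cluster assembly (106, 428, 117 and 108). Tmem179b (2.29), Supt4b, a copy of a transcription elongation factor gene (2.13), Mrps18c (1.76) and the ribosomal protein pseudogene Rpl17-ps5 (1.47) completed the 8. The call of Ciao2a was lost on log2 of signal plus 16, and that of Mrps18c with a narrower window for the SD.

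Small RNA genes gave some of the widest differences, and the kit labels total RNA, so their features can read precursors and host transcripts as well as mature RNA. Of 597 microRNA genes 15 (2.51%) were called higher and 4 (0.67%) lower, and of 152 small nucleolar and spliceosomal RNA genes 8 were called higher and 3 lower, against 1.26% and 1.09% of all genes. Mir7015 gave 23.5 on the 6w Tyk2+/+ array, 1074 on the 6w Tyk2-/- array, 18.8 on the 11w Tyk2+/+ array and 17.1 on the 11w Tyk2-/- array, a 45.8-fold higher signal on 1 array. Mir6920 gave 8.70, 135, 10.3 and 9.01, Mir341 9.59, 35.1, 9.77 and 9.85 and Mir376c 14.7, 36.3, 27.2 and 16.4. Mir690 differed in the other direction at both ages, at 716, 79.7, 578 and 91.5, where both Tyk2-/- arrays were below both Tyk2+/+ arrays. Mature sequences are shown for Mir7015, which had the widest rise of a microRNA gene, and Mir690, which differed at both ages. They are from RefSeq (GRCm38.p6), printed 5′ to 3′ with the seed, bases 2 to 8, in capitals.
mmu-miR-7015-5p (chr4:120973295-120973317, minus strand): uCUGUGCAguaggcuguggguuc
mmu-miR-7015-3p (chr4:120973259-120973279, minus strand): uCUCACUGuccucugcacuag
mmu-miR-690 (chr16:28599940-28599961, minus strand): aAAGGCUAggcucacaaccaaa
No 2 of these 3 mature sequences have the same seed. Among small nucleolar RNA genes, which guide the chemical modification of ribosomal RNA, Snord61 had the widest rise of any gene at 6w, from 8.14 to 405, with 10.6 and 43673 on the 11w arrays. Snora69 gave 46.9, 524, 63.0 and 368, higher on both Tyk2-/- arrays.

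Few of the 6w differences were seen again at 11w, where 862 genes (2.86%) were called, 456 higher (1.51%) and 406 lower (1.35%). The 6w and 11w comparisons share no array. Of the genes called at 6w, 47 were called the same way at 11w, which is 6.61% of the 6w calls and 5.45% of the 11w calls, and 41 were called the opposite way (5.77% and 4.76%). Of the 381 genes called higher at 6w, 201 (52.8%) had a difference of the same sign at 11w and 304 were within 1.5-fold there. Of the 330 called lower, 165 (50%) had the same sign and 216 were within 1.5-fold. Across all 30176 genes the differences at the 2 ages had a Pearson correlation of 0.036, given as a description, since genes on 1 array are not independent.

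**Figure D4:**
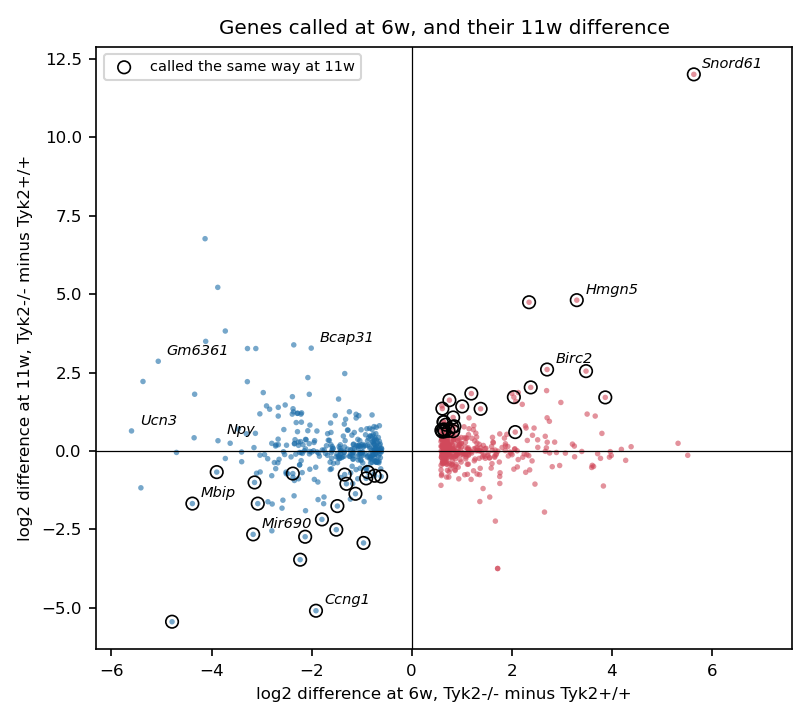
Each point is a gene called at 6w, red if higher and blue if lower in Tyk2-/- β-cells, with its log2 difference at 6w on the x axis and at 11w on the y axis; black rings mark the 47 genes called the same way at 11w. Most points lie close to the horizontal line at 0; Ucn3 and Npy are at 0.64 and 0.33 at 11w.

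Of the 47 genes called the same way at both ages, 26 were higher and 21 lower, and 11 had an assigned symbol outside the predicted, small RNA and sensory receptor groups. The 5 higher ones were Hmgn5 (log2 difference 3.30 at 6w and 4.81 at 11w), Birc2 (2.71 and 2.60), the pseudogene Anp32-ps (1.19 and 1.83), the triosephosphate isomerase-related Tpi-rs8 (0.68 and 0.84) and Ifit3b. Tpi-rs8 lost its 6w call with 1 SD over all features, with quantile normalization, with a ratio limit alone and on log2 of signal plus 16. The 6 lower ones included Mbip (-4.38 and -1.68) and Ssr2 (-1.48 and -1.76). Ccng1, cyclin G1, gave 8854 on the 6w Tyk2+/+ array, 2352 on the 6w Tyk2-/- array, 2930 on the 11w Tyk2+/+ array and 85.8 on the 11w Tyk2-/- array, so the genotype difference was wider at 11w (-5.09) than at 6w (-1.91). Zfp960, a zinc finger protein gene, gave 1436, 414, 192 and 42.3, and its 6w call was lost under quantile normalization. Cyct, the testis cytochrome c, gave 32.8, 16.9, 149 and 19.6, and the immunoglobulin segment Ighv1-67 gave 20.5, 13.4, 20.8 and 11.8. Both lost the 6w call with a ratio limit alone and on log2 of signal plus 16, and Ighv1-67 also with 1 SD over all features. Both Tyk2-/- arrays were separated from both Tyk2+/+ arrays in each of these 11 genes except Zfp960, whose 6w Tyk2-/- signal was above that of the 11w Tyk2+/+ array.

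**Figure D5:**
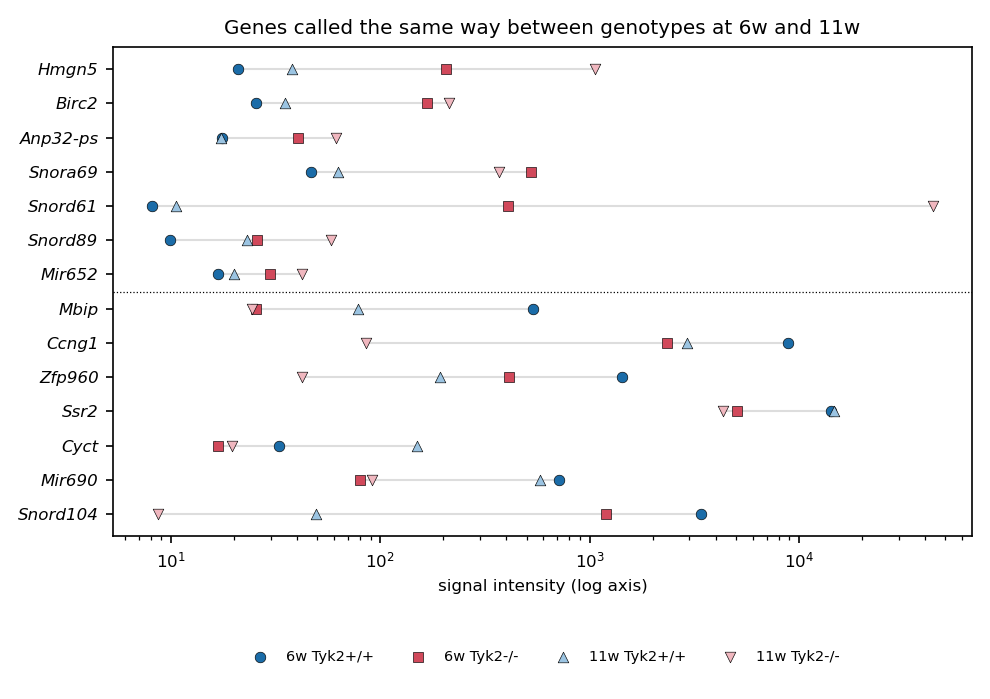
Signal intensity (log axis) on the 4 arrays of 14 genes called the same way between the genotypes at 6w and 11w; genes above the dotted line were higher in Tyk2-/- β-cells and those below it lower. In Hmgn5, Birc2, Snora69, Snord61 and Mir690 the red Tyk2-/- symbols are separated from the blue Tyk2+/+ symbols, while in Zfp960 and Snord104 the symbols of the 6w arrays both lie to the right.

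The region around Tyk2 was described separately, because a marker on chromosome 9 had kept the donor form. The 25 measured genes on each side of Tyk2 in RefSeq order were taken. Of these 50 genes none was called higher and 2 were called lower, against 1.26% and 1.09% of all genes. Their median difference was 0.00. Qtrt1, a subunit of the enzyme that puts queuine into transfer RNA, gave 62.1, 20.4, 28.9 and 19.5, and the predicted gene Gm7904 gave 113, 24.3, 19.0 and 23.3. In both the 6w Tyk2+/+ array was the highest of the 4. Zfp266 (-1.75 at 6w and 0.03 at 11w) and Zfp560 (-1.15 and 0.74), also in this window, were not called. Icam1, next to Tyk2 but for other Icam genes, differed by -0.22. On chromosome 9 as a whole 22 of 1500 genes were called higher and 21 lower, or 2.87% in either direction, against 2.36% of all genes. Birc2, Atp1b3, Ciao2a, Nicn1, Scg3 and Entpd3 are on chromosome 9 but outside this window. Whether the donor origin of sequence on chromosome 9 played a part in these values was not tested.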

How the data were processed

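Total RNA of sorted β-cells had been labelled with the GeneChip WT Pico kit and hybridised to Clariom D mouse arrays, 1 array for each age and genotype. The authors deposited normalized signal intensity values on a linear scale, and Affymetrix Expression Console is named in the submitters' processing notes (no version); the background correction and normalization are not given in the sources used here. Precision is limited by the number of arrays. Of 65956 features, 30638 had 1 gene symbol, 2176 several and 33142 none; 22596 were matched to RefSeq by Entrez identifier. The chromosome in the feature name differed from that of RefSeq for 69 of 29749 genes compared, and no microRNA value is reported for such a feature except where stated. For the 354 genes with several features the one with the highest mean over the 4 arrays was used.

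Log2 differences, Z scores (SD over the features nearest in signal) and counts were computed with Python 3.11.15, NumPy 2.4.6 and pandas 2.3.3, with figures made in matplotlib 3.10.9. The study's methods state Z score and ratio limits but no calculation, and those for the ratio, printed there with turned signs, were read as above 1.5 and below 0.66. The members and the 44 gene lists were chosen with earlier results of these data known, and 3 lists (ER translocation and early secretory pathway, Xlr genes, calcium sensors) after their values had been seen. Named genes were the 12 highest and 12 lowest called genes with an assigned symbol at or above the 75th percentile of mean signal, the 8 each way above the 90th percentile on both 6w arrays, genes called alike at both ages, the widest differences in each list (at most 4 members), all called members of lists with 5 or fewer calls, and genes the study names. Level genes, microRNA and small nucleolar RNA genes, Rn7s1 and Rn7s2 and genes near Tyk2 were added after their values were seen. Histone (31 genes, no call) and HMG genes (6, with Hmgn5 called), liver-type plasma protein genes (17, no call) and red blood cell genes (2, no call) were also examined. The alternatives were another window or 1 SD for the Z score, median centring, quantile normalization, a ratio limit alone, a filter on dim features, log2 of signal plus 16 and the mean of a gene's features. Promoter and microRNA sequences are from RefSeq; 250 bases before each start were searched for motifs.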

Additional observations from a re-analysis of the deposited data

Results flagged for a closer look

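At 6w and 11w 41 genes were called opposite ways between the genotypes, each age with 1 array per genotype, so the difference between the ages was not tested. Of these 41, the 6 below are named by the rules of the methods or in the text. The log2 difference of Nicn1 was -3.28 at 6w and 2.21 at 11w. Bcap31, the ER membrane protein, went from -2.01 at 6w to 3.28 at 11w. Mir378c had a difference of 2.65 at 6w and -1.95 at 11w, but its feature is on chromosome 3 by its name and RefSeq places Mir378c on chromosome 14, so the identity of that RNA is uncertain. Mir376c had differences of 1.31 and -0.74. The predicted genes Gm6565 (-5.37 at 6w and 2.21 at 11w) and Gm6361 (-5.06 and 2.86) had the widest differences of the 6 at 6w.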

How the results depend on the processing

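Counts of calls depended on how the spread was estimated. With 1 SD over all features, 627 genes were lower, 41.8% of calls were higher ones, 126 genes were called the same way and 140 opposite ways at both ages. With a ratio above 2.0 or below 0.5 alone, these values were 550 lower, 41.9%, 118 and 127. Without dim features 248 genes were called higher. On log2 of signal plus 16, 165 genes were higher, 42.0% of calls were higher ones, and 23 and 21 genes were called the same and opposite ways. Among genes outside the predicted, small RNA and sensory receptor groups, an alternative chosen after seeing the data, 128 were higher, 194 lower and 39.8% of calls were higher ones. The main values were 381 higher, 330 lower, 53.6%, 47 and 41. The cause of these shifts was not tested. A set of 98 called genes was followed, picked by the naming rules or named after their values were seen. Of these, 80 kept their call under all settings that could be run for them. The most, 12, lost it on log2 of signal plus 16. No called gene changed direction under these settings, and medians of some lists near 0 changed sign. With 1 array per condition no replicate could be left out. No paired analysis was possible because each group has 1 array, so no fit has a replicate number to block on. Differences of dim features are limited by signal over background, and features at the top of the scale cannot show a difference.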
